A study of Homo sapiens with 4 samples.

Results

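The genes described here encode mRNA export factors, the proteins that carry messenger RNA from the nucleus to the cytoplasm. The 10 members are NXF1, NXT1, ALYREF, DDX39A, DDX39B, THOC1, THOC2, THOC5, SARNP and GLE1, taken by symbol from a table of 51740 genes, and all 10 were among its 23333 tested genes. RNA was sequenced from nuclear and cytoplasmic fractions of wild-type HEK293T cells, an immortal line grown from human embryonic kidney that expresses a viral T antigen. All cells were crosslinked with formaldehyde before fractionation, and no other treatment or genotype was compared. There were 4 libraries, from 2 independent biological replicates of each fraction, and 400 ng of RNA went into the ribodepletion kit for every library. The question put to these genes is in which fraction the mRNAs that encode the export machinery themselves take a larger share of the RNA.

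In the textbook pathway, the THO complex and its partners form TREX, which is loaded on the mRNA during transcription and splicing. A DEAD-box helicase, DDX39B (UAP56) or its close relative DDX39A, joins THO to adaptor proteins such as ALYREF and SARNP (CIP29). The adaptors hand the mRNA to the receptor, a dimer of NXF1 and NXT1, which passes through the nuclear pore. At the cytoplasmic face of the pore, GLE1 activates a helicase that strips the export proteins from the mRNA. These roles belong to the proteins, whereas the values below are those of their mRNAs and unspliced precursors, because reads on exons and introns were counted together.

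The pair DDX39A and DDX39B is shown first, because a read that fits both genes could not be assigned to either. The coding sequences were identical at 80.0% of 1284 aligned bases and the proteins at 90.2% of 427 residues. The longest stretch without a difference was 26 bases, against reads of 100 nt from both ends. Of 1399 windows of 100 nt in the canonical DDX39A transcript, 0 occurred in the canonical DDX39B transcript. Reads of this length from these spliced transcripts could therefore be told apart, whereas introns and other annotated exons were not compared. The stretch below runs over the junction of exons 4 and 5 in both genes, on the minus strand of hg38, at chr19:14411166-14411588 for DDX39A and chr6:31536677-31538845 for DDX39B. Capitals mark the 14 of 90 bases that differ.
DDX39A: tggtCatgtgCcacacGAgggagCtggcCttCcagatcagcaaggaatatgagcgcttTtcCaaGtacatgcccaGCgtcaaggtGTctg
DDX39B: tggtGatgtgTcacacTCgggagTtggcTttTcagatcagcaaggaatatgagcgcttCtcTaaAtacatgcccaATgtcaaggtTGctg

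The fractions were checked with the RNAs fixed for this purpose. Both nuclear lncRNAs were higher in the nuclear fraction, with a log2 fold change (cytoplasmic over nuclear) of -3.47 for MALAT1 and -3.09 for NEAT1. All 3 mRNAs of the translation machinery on the list (RPLP0, RPS2, EEF1A1) were higher in the cytoplasmic fraction, by 3.77 to 4.10. All 4 genes listed for lines derived from embryonic kidney were tested, at mean normalized counts of 16264 for NEFM, 13195 for NEFL, 3376 for LIN28B and 63.1 for PAX2. Of 4 markers of blood, liver and muscle, only PTPRC was tested, at a mean of 1.76, and the other 3 lay below 1. The library totals were 21.3M and 24.6M counts on genes for the nuclear and 21.9M and 24.2M for the cytoplasmic libraries. The single libraries are named by depth, since the table does not show which replicate number each one carries.

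**Figure D1:**
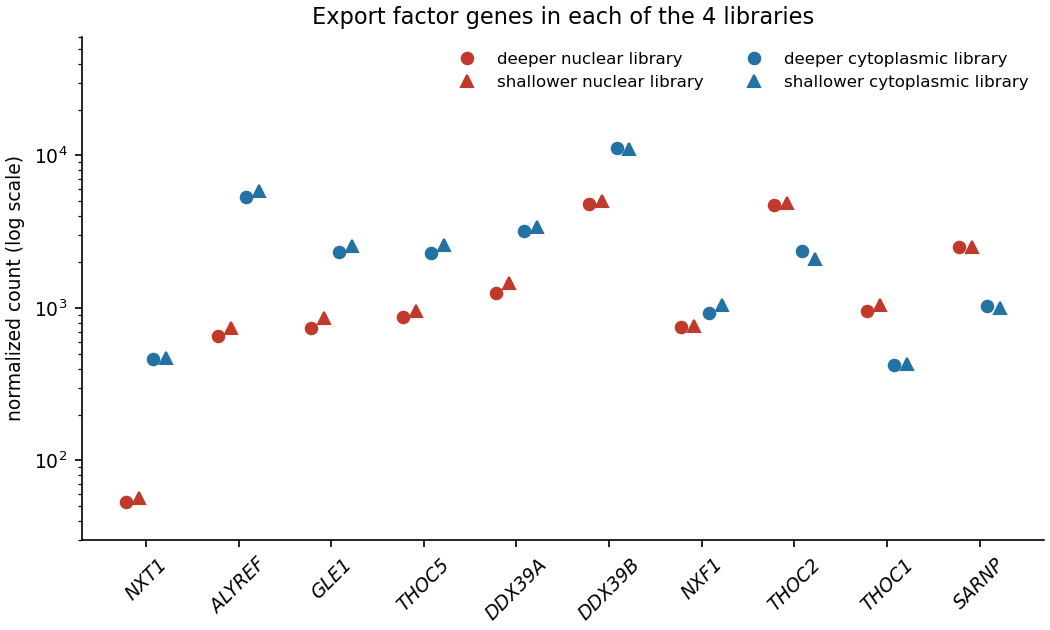
Normalized count (log axis) of each export factor gene in the 4 libraries, circles for the deeper and triangles for the shallower library of a fraction, with nuclear libraries in red and cytoplasmic libraries in blue. The red and blue symbols do not overlap for any of the 10 genes, with the narrowest gap at NXF1. Of 23025 tested genes with recovered counts, 40.1% did not overlap with cytoplasmic libraries higher, and 45.7% with nuclear libraries higher.

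Export factor mRNAs were found on both sides. In the authors' deposited table, 6 of the 10 members (NXT1, ALYREF, GLE1, THOC5, DDX39A, DDX39B) were higher in the cytoplasmic fraction at a DESeq2 adjusted p of at most 0.01. In the same comparison 25.9% of everything tested was called in that direction, and 35.6% of the 15336 protein-coding genes among it. A further 3 members (THOC2, THOC1, SARNP) were higher in the nuclear fraction, beside 26.5% of all tested and 28.4% of protein-coding genes. NXF1 was not called in either direction. The median log2 fold change of the members was 1.23, beside -0.12 over all tested genes and 0.11 over protein-coding genes. Each library started from the same mass of RNA before ribodepletion. A larger share of a fraction's RNA therefore cannot be told apart from a smaller amount of the fraction's other RNA. The deposited values are scaled by size factors and are not ratios of shares of all counts. With equal library totals, the scale of such shares, every log2 fold change was 0.66 lower and the members' median was 0.57. On that scale 6 members still passed as cytoplasmic, beside 16.2% of all tested and 22.4% of protein-coding genes. The 3 nuclear members stood beside 38.3% and 42.6%.

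The whole counts behind each mean were recovered for all 10 members. Within a fraction, the higher library stood above the lower one by at most 1.16-fold for any member. Both cytoplasmic libraries lay above both nuclear ones in 7 members and below both in the other 3. Over the 23025 tested genes with recovered counts, 40.1% did not overlap in the first and 45.7% in the second direction, so that non-overlap was common in the table. The counts were recovered so as to give the deposited log2 fold changes, so the directions in a fit on them were fixed beforehand. A limma fit on these counts called the same 9 members. It called 27.6% of the genes fitted as cytoplasmic and 31.5% as nuclear. Each library was also left out in turn in the limma fit. The log2 fold changes of all 10 members kept their sign. This outcome was fixed beforehand, because no member overlapped between the fractions. The log2 fold change of NXF1, the smallest, ran from 0.29 to 0.46. Such a fit leaves a single library in 1 fraction. Calls did not hold in all of these fits, as the last section describes.

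The subunits of the receptor differed in the size of their fold change. NXF1 is the large subunit that contacts the mRNA and the pore, and its gene lies on chromosome 11 (62792123 to 62806302, minus strand) with 21 exons. NXF1 had 752.4 and 758.5 normalized counts in the deeper and shallower nuclear libraries and 923.9 and 1039 in the deeper and shallower cytoplasmic libraries. Both cytoplasmic values were higher, and the nearest values of the fractions were 1.22-fold apart. The log2 fold change was 0.38 ± 0.14 (SE, n = 2 libraries in each fraction), with an adjusted p of 0.0162 in the authors' DESeq2 table, and did not pass the threshold. Its direction depended on the scale. As a share of all counts, NXF1 took 41.0 and 42.3 CPM (counts after scaling every library to the same total) in the nuclear libraries and 32.6 and 35.8 CPM in the cytoplasmic ones. With equal library totals, which lowers every log2 fold change by 0.66, it stood at -0.29 with an adjusted p of 0.0735 recomputed from the authors' standard errors.

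NXT1, the small subunit that NXF1 needs to bind the pore, had the largest fold change of the set. Its gene is on chromosome 20 (23350791 to 23354771, plus strand) and has 1 intron in the canonical transcript. NXT1 had 53.7 and 56.3 normalized counts in the deeper and shallower nuclear libraries (72 and 67 counts before normalization) and 465.5 and 470.45 in the cytoplasmic ones. The fractions were far apart, with 8.26-fold between their nearest values. The log2 fold change was 3.09 ± 0.23 (SE, n = 2 in each fraction), an 8.51-fold difference, with an adjusted p of 3.61e-39 in the authors' DESeq2 table. It exceeded that of NXF1 by 2.71 ± 0.27 (combined SE, taking both errors as independent; 95% interval 2.18 to 3.25). Per kb of exon, NXF1 had the higher level of the pair in the nuclear fraction, 122 against 51.8 normalized counts, and NXT1 in the cytoplasmic fraction, 440.6 against 158. These levels divide reads on exons and introns by all annotated exon, so they run high for a gene with many intronic reads. Where leaving out exon shared with other genes turns an order, the other value is given.

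Subunits of the THO complex fell on opposite sides. THOC2, the largest subunit and scaffold of the complex, lies on chromosome X (123600561 to 123733056, minus strand) and spans 132 kb with 39 exons. THOC2 had 4705 and 4902 normalized counts in the deeper and shallower nuclear libraries and 2371 and 2081 in the deeper and shallower cytoplasmic ones. Both nuclear values were at least 1.98-fold above both cytoplasmic ones. THOC2 had a log2 fold change of -1.11 ± 0.12 (SE, n = 2 in each fraction), with an adjusted p of 1.04e-20 in the authors' DESeq2 table.

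THOC1 encodes another core subunit of THO, on chromosome 18 (214520 to 268050, minus strand). THOC1 had 958.3 and 1045 normalized counts in the nuclear libraries and 423 and 427 in the cytoplasmic ones, deeper library first. It was the member with the lowest level per kb of exon in the cytoplasmic fraction, at 52.5 normalized counts. THOC1 had a log2 fold change of -1.24 ± 0.15 (SE, n = 2 in each fraction), with an adjusted p of 3.07e-15 in the authors' DESeq2 table.

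THOC5, a subunit of metazoan THO on chromosome 22 (29505879 to 29555216, minus strand), went the other way. THOC5 had 878 and 952 normalized counts in the nuclear libraries and 2289 and 2572 in the cytoplasmic ones, deeper library first. The fractions did not overlap, and the log2 fold change was 1.41 ± 0.13 (SE, n = 2 in each fraction; adjusted p of 5.31e-27 in the authors' DESeq2 table). The difference between THOC5 and THOC2 was 2.52 ± 0.17 (95% interval 2.18 to 2.86) and that between THOC5 and THOC1 was 2.65 ± 0.20 (95% interval 2.25 to 3.04), in log2 units. Per kb of exon, THOC2 was the highest of these 3 subunits in the nuclear fraction and THOC5 in the cytoplasmic fraction. Intron makes up 92.2% of the span of THOC2, 84.9% of THOC1 and 84.0% of THOC5, and reads there were counted too. In the nuclear fraction THOC2 stood at 467.4 normalized counts, THOC1 at 123.7 and THOC5 at 116.2. Other genes cover 28.0% of the THOC5 exons, and over the exon free of them THOC5 (161.3) stood above THOC1 (125.4). In the cytoplasmic fraction THOC5 stood at 308.5, THOC2 at 216.6 and THOC1 at 52.5. The remaining subunits of THO, named for belonging to the complex after their values had been seen, were all higher in the cytoplasmic fraction in the authors' DESeq2 table. Their log2 fold changes were 1.85 ± 0.14 for THOC3, 1.93 ± 0.17 for THOC6 and 0.85 ± 0.16 for THOC7 (SE). With equal library totals THOC7 was at 0.18, with an adjusted p of 0.309 recomputed from the authors' standard errors, and was no longer called.

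Both helicases were higher in the cytoplasmic fraction. DDX39B, on chromosome 6 (31530219 to 31542448, minus strand), was the member with the most normalized counts. DDX39B had 4806 and 5018 normalized counts in the deeper and shallower nuclear libraries and 11114 and 11067 in the cytoplasmic ones. Both replicate pairs were close, and the fractions were 2.21-fold apart at their nearest values. The log2 fold change was 1.18 ± 0.10 (SE, n = 2 in each fraction; adjusted p of 4.95e-30 in the authors' DESeq2 table). DDX39A, on chromosome 19 (14408798 to 14419383, minus strand), had 1252 and 1447 normalized counts in the nuclear libraries and 3187 and 3394 in the cytoplasmic ones. Its nuclear libraries were the least alike of any replicate pair in the set, yet both stayed below both cytoplasmic values. DDX39A had a log2 fold change of 1.29 ± 0.12 (SE, n = 2 in each fraction; adjusted p of 2.92e-24 in the authors' DESeq2 table). The difference between the helicases was 0.11 ± 0.16 on the log2 scale, with a 95% interval from -0.20 to 0.43. Per kb of exon, DDX39B stood above DDX39A in both fractions, at 701 against 349.6 normalized counts for nuclear RNA and 1583 against 852 for cytoplasmic RNA. The processed copies DDX39AP1 and NXT1P1 and the copies DDX39BP1 and DDX39BP2 were listed at a mean of 0.

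The adaptors lay at opposite ends of the set. ALYREF, which binds the mRNA and hands it to NXF1, is encoded on chromosome 17 (81887835 to 81891586, minus strand) in 6 exons over 3.75 kb. ALYREF had 658 and 743 normalized counts in the deeper and shallower nuclear libraries and 5304 and 5884 in the cytoplasmic ones. The lowest cytoplasmic value was 7.14 times the highest nuclear one. ALYREF had a log2 fold change of 2.998 ± 0.12 (SE, n = 2 in each fraction), a 7.99-fold difference, with an adjusted p of 3.18e-129 in the authors' DESeq2 table. ALYREF also had the highest level per kb of exon in the cytoplasmic fraction, 3534 normalized counts, whereas in the nuclear fraction SARNP, DDX39B and THOC2 stood above its 442.5. Other genes cover 30.3% of its exons, and over the exon free of them ALYREF (634.9) stood above THOC2 (496.9).

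SARNP, an RNA-binding partner of the helicase, lies on chromosome 12 (55752463 to 55817724, minus strand). SARNP had 2495 normalized counts in each nuclear library and 1032 and 999.2 in the deeper and shallower cytoplasmic libraries. The nuclear values were equal when rounded to a whole number, and both were 2.42-fold or more above the cytoplasmic ones. Its log2 fold change was -1.30 ± 0.12 (SE, n = 2 in each fraction), the lowest of the set, with an adjusted p of 6.81e-26 in the authors' DESeq2 table. SARNP had the highest level per kb of exon of all members in the nuclear fraction, at 741 normalized counts, although 94.8% of its span is intron and reads there were counted too.

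GLE1, the pore factor of the set, is encoded on chromosome 9 (128504655 to 128543874, plus strand). GLE1 had 742 and 857 normalized counts in the deeper and shallower nuclear libraries and 2318 and 2559 in the cytoplasmic ones. The fractions stood 2.71-fold apart at their nearest values. The log2 fold change was 1.61 ± 0.13 (SE, n = 2 in each fraction; adjusted p of 1.07e-32 in the authors' DESeq2 table).

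**Figure D2:**
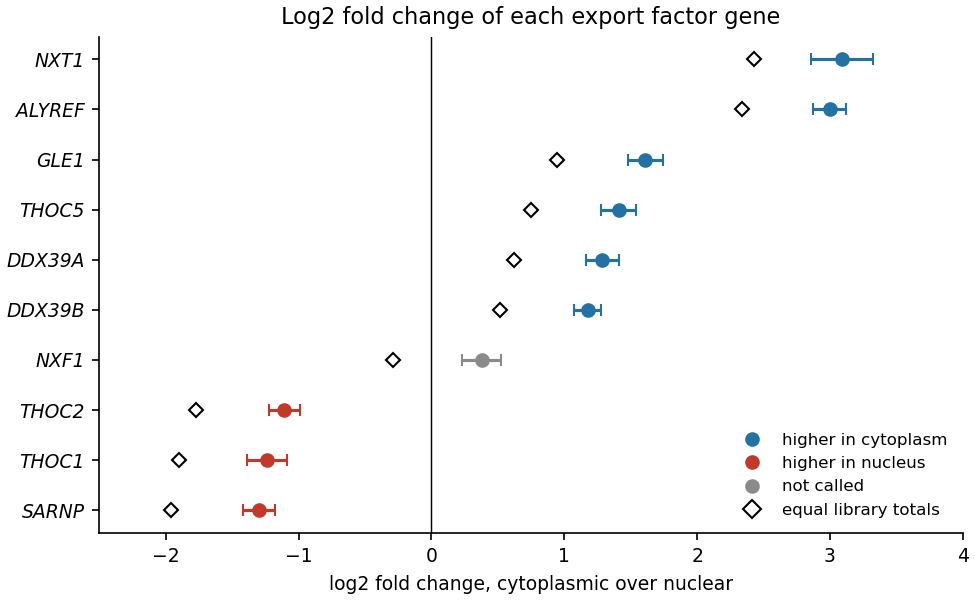
Log2 fold change (cytoplasmic over nuclear) of each export factor gene, filled circles with standard errors from the authors' table and open diamonds for the same value with equal library totals. Of the 10 genes, only NXF1 changes side between the scales, from 0.38 to -0.29.

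Ordered by log2 fold change, the members were divided into 4 runs. The borders were placed at the widest gaps after the values had been seen, and these gaps were wider than the errors. NXT1 and ALYREF were highest and differed by 0.09 ± 0.26 (combined SE). A step of 1.39 ± 0.18 led to GLE1, which was followed by THOC5, DDX39A and DDX39B with neighbours 0.11 to 0.20 apart and combined errors of 0.16 to 0.19, although the ends of this run, GLE1 and DDX39B, differed by 0.43 ± 0.17. NXF1 stood alone, 0.80 ± 0.18 below DDX39B and 1.49 ± 0.18 above THOC2. THOC2, THOC1 and SARNP closed the order, and neighbours among them differed by 0.13 ± 0.19 and 0.06 ± 0.20. Among tested protein-coding genes the members ran from the 20.9th percentile for SARNP to the 97.7th for NXT1, with NXF1 at the 56.4th.

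**Figure D3:**
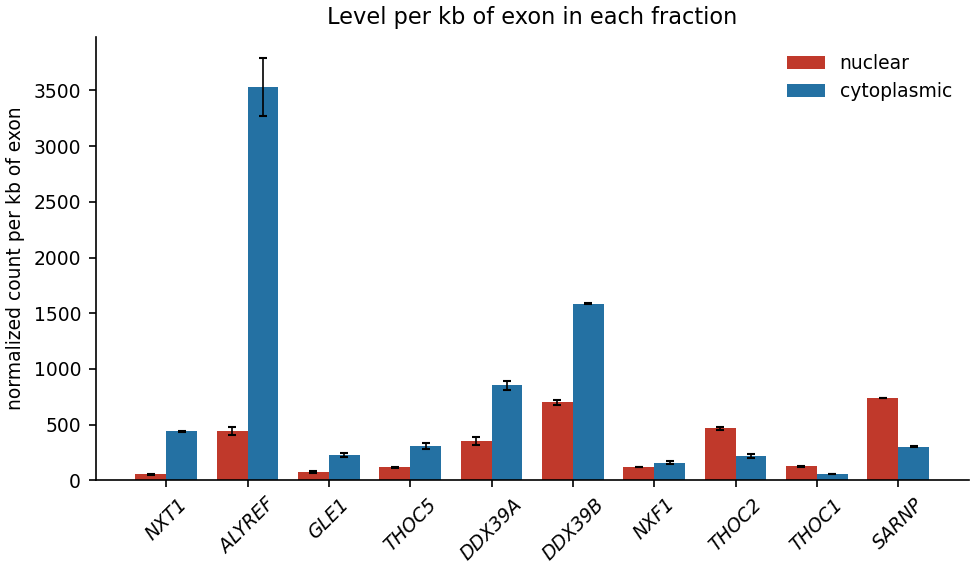
Mean normalized count per kb of all annotated exon in the nuclear (red) and cytoplasmic (blue) fraction, with the SD of 2 libraries as error bars. Reads on introns are part of the counts. The cytoplasmic bar of ALYREF reaches 3534, and the nuclear bar is the taller of the pair for THOC2, THOC1 and SARNP.

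The members also differ in the length and overlap of their genes, read from the GENCODE 44 annotation of hg38. Intronic reads were counted, and the authors removed stretches that several genes share, so both properties bear on what was counted. The tested protein-coding genes with an annotated span (15323) were split into 10 groups of about equal size by span. The group medians of the log2 fold change fell from 2.02 in the shortest to -1.97 in the longest group. ALYREF (3.75 kb) and NXT1 (3.98 kb) are in the shortest group, at the 82.1st and 84.7th percentile of it. DDX39A (10.6 kb), DDX39B (12.2 kb) and NXF1 (14.2 kb) stood at the 47.5th, 58th and 33rd percentile of their groups. THOC2, the longest member, was at the 41.5th percentile of its group.

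The members of intermediate span divided. THOC5 (49.3 kb), THOC1 (53.5 kb) and SARNP (65.3 kb) fall in the same group, whose median log2 fold change was -0.18. THOC5 lay 1.59 above that median, at the 94.3rd percentile, whereas THOC1 and SARNP lay at the 17.1st and 16.2nd. GLE1 (39.2 kb) lay 1.49 above the median of its group, at the 94.1st percentile. THOC5 and GLE1 are also the members with the largest share of their span under other annotated genes, 44.4% for THOC5, all on its own strand, and 38.8% for GLE1, all on the opposite strand. For ALYREF and NXT1 this share was 21.2% and 17.5%, all of it under genes on the opposite strand, for SARNP it was 9.01%, and for the other members it was at most 2.56%. The part that the overlaps play in these values was not tested. Over the 10 members the rank correlation (Spearman) of span with log2 fold change was -0.77, and over all tested protein-coding genes with a span it was -0.60. With 5 other properties it was, over the members, 0.69 for GC content of the canonical transcript, -0.60 for its number of introns, -0.44 for the intronic share of the span, -0.31 for exonic length and -0.22 for coding length, and these were not computed over all genes. These correlations are descriptions across genes that share the same 4 libraries.

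**Figure D4:**
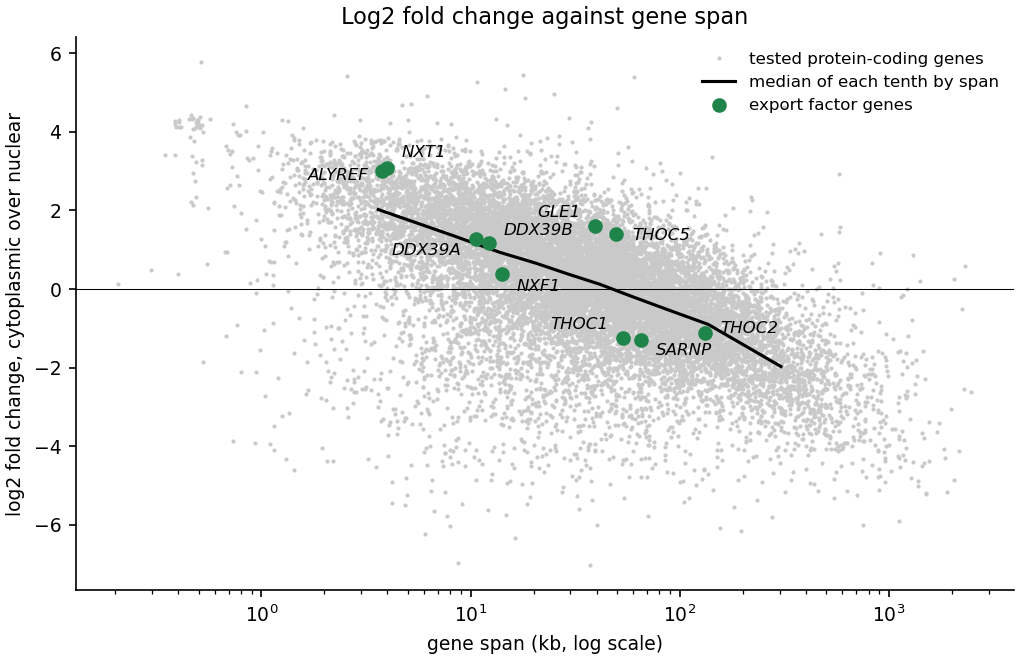
Log2 fold change (cytoplasmic over nuclear) against gene span in kb (log axis) for tested protein-coding genes (grey), with the median of each of 10 groups by span (line) and the export factor genes (green). GLE1 and THOC5 lie above the line, at the 94.1st and 94.3rd percentile of their groups, and THOC1 and SARNP below it.

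The wider pathway was described with 8 lists of 47 genes in all, of which 43 were tested. By the authors' DESeq2 adjusted p, 29 were called cytoplasmic, 4 nuclear and 10 in neither direction, with a median log2 fold change of 0.85. Among all protein-coding genes tested, 35.6% were cytoplasmic and 28.4% nuclear. Counts depended on the scale, and with equal library totals 18 were cytoplasmic and 14 nuclear. That scale called 16.2% of all tested genes and 22.4% of protein-coding genes cytoplasmic, and 38.3% and 42.6% nuclear. Where a list below has 0 nuclear genes on the deposited scale, the limma fit also called 0 of those with recovered counts. The same lists were read at an unadjusted p under 0.05 in the authors' DESeq2 table. Of them, TREX-2 and the cap-binding list had 1 nuclear gene each and the rest had 0. Among other TREX subunits and adaptors, 7 of 8 tested genes were cytoplasmic and 0 nuclear, from 2.26 ± 0.12 for ERH down to -0.22 ± 0.12 for ZC3H11A, which was not called. With equal totals the list had 5 cytoplasmic genes and 1 nuclear gene. Among relatives of the receptor, NXT2, a paralogue of NXT1, was the only one tested, at 3.06 ± 0.32 beside 3.09 ± 0.23 for NXT1. NXF2 and NXF3 were not tested, at mean normalized counts of 0.397 and 1.61, and NXF5 was listed at 0.

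TREX-2, a complex that brings active genes to the pore, had 2 cytoplasmic genes and 0 nuclear ones among 6 on the deposited scale, and 2 and 4 with equal totals. CETN2, a centrin, was highest at 2.12 ± 0.26, and CETN3 was lowest at -0.54 ± 0.25 and not called. The list of genes that act in release at the pore, to which GLE1 belongs by function, had 4 cytoplasmic and 3 nuclear genes of 8 on the deposited scale, and 0 and 5 with equal totals. It ran from 0.98 ± 0.13 for DDX19A, a relative of the helicase that GLE1 activates, to -1.05 ± 0.11 for NUP214, the nucleoporin that holds this helicase. GLE1, at 1.61, was above all 8.

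Of the cap-binding complex and its partners, 3 of 4 genes were cytoplasmic and 0 nuclear, from 1.52 ± 0.15 for NCBP2, the subunit that binds the cap, to -0.32 ± 0.12 for NCBP3, which was not called. In the exon junction complex and its periphery, 6 of 8 were cytoplasmic and 0 nuclear, from 2.75 ± 0.14 for SAP18 to -0.10 ± 0.12 for ACIN1, which was not called. The CRM1 route, which exports proteins and a few RNAs without NXF1, had 3 cytoplasmic genes and 1 nuclear gene of 5. RAN, the GTPase of the route, reached 3.04 ± 0.12, and XPO1, which encodes CRM1 itself, was at -0.37 ± 0.10 (adjusted p of 0.000855 in the authors' DESeq2 table). All 3 shuttling SR proteins that act as adaptors of NXF1 were cytoplasmic, from 1.07 ± 0.13 for SRSF1 to 1.88 ± 0.12 for SRSF3. With equal totals, the cytoplasmic and nuclear genes numbered 1 and 1 in the cap-binding list, 4 and 1 in the exon junction list, 2 and 2 in the CRM1 route and 3 and 0 among the SR proteins. The errors in these lists are standard errors with n = 2 libraries in each fraction.

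**Figure D5:**
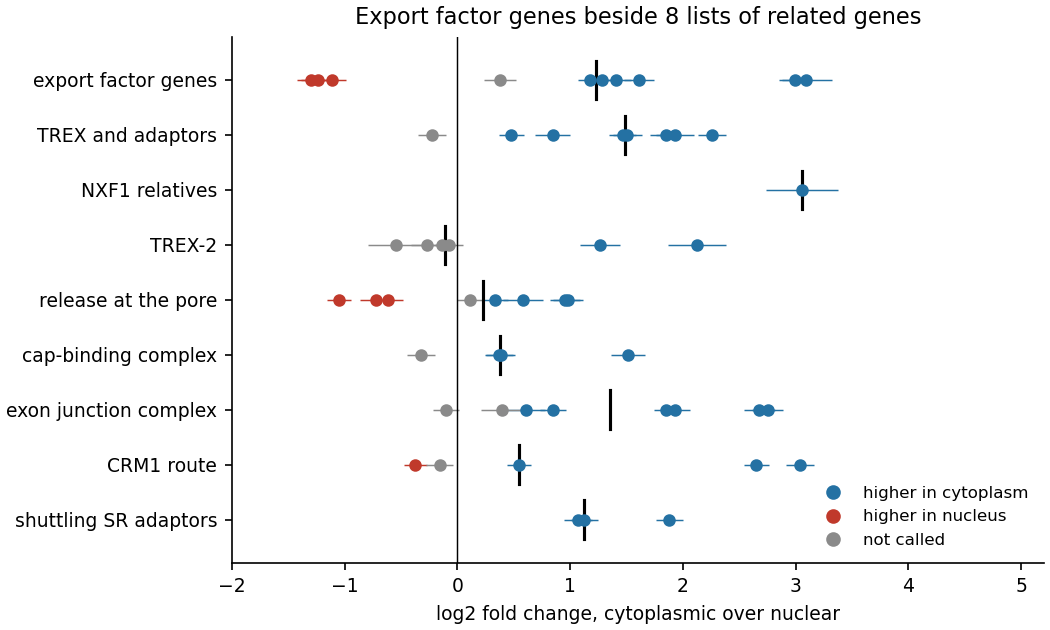
Log2 fold change (cytoplasmic over nuclear) with standard errors for the export factor genes and the tested genes of 8 related lists, coloured by call, with black bars at the medians. On this deposited scale, nuclear calls (red) occur among the export factor genes, the list for release at the pore and the CRM1 route.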

How the data were processed

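RNA from 2 nuclear and 2 cytoplasmic fractions of HEK293T cells was sequenced. The authors aligned the reads to hg38 with STAR, counted them with featureCounts (2.0.2, minimum overlap 20) over exons and introns of an annotation derived from GENCODE 34, from which shared stretches and readthrough transcripts had been removed, and compared the fractions with DESeq2. Whether counting used strand is not given in the sources used here. The deposited mean normalized count is a signal that the authors averaged over the 4 libraries. Fold changes with their standard errors were deposited on the log2 scale, cytoplasmic over nuclear. A Wald score, its p-value and the Benjamini-Hochberg adjusted value were deposited with them. These are the authors' own values for this comparison, used here as deposited because the table holds no column of a single library. Members were called at an adjusted p of at most 0.01.

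Counts of single libraries were recovered. The mean is a sum of whole counts times 4 steps, 1 for each library, and the steps (size factors 1.341 and 1.189 for the nuclear, 0.8529 and 0.7546 for the cytoplasmic libraries) were read from the lowest means. Of the whole-number solutions for a gene's mean, the one that gave the deposited log2 fold change within 1e-06, given its standard error, was kept, for 15406 genes that include all 10 members. A further 7619 genes with a mean under 60 had a single solution and were kept on it, with a log2 residual under 0.05 where both fractions had counts. In all, 23025 of 23333 tested genes (98.7%) were recovered. Size factors recomputed from the recovered counts differed from the steps by at most 0.789%. Library totals include genes without recovered counts at their fraction mean. Recovered genes hold 88.3% and 88.1% of the nuclear totals but only 59.2% and 60.1% of the cytoplasmic ones, deeper library first. Recovered counts were tested with limma (3.58.1, trend) on log2(normalized count + 0.5), an addition made after seeing the data. Both steps were tested on simulated data, in which the limma fit missed many of the genes simulated as changed. A gene that this fit does not call is therefore not shown to be unchanged. With 2 libraries against 2, an exact permutation test cannot go below a two-sided p of 0.333, so no single-gene permutation test was run.

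The members and the lists were chosen with earlier results of these data known. The genes named are the 10 members, the highest and lowest tested gene of each list, MALAT1 and NEAT1, besides the markers fixed for checking the fractions and the line, and genes said to be named otherwise. Gene structure came from GENCODE 44 on hg38, a later release than the authors'.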

Additional observations from a re-analysis of the deposited data

How the results depend on the processing

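The 9 calls of members kept their direction and stayed past the threshold with equal library totals and with the protein-coding median at 0. They also stayed past it with Bonferroni adjustment over all p-values and in the limma fit of recovered counts. The study's cut-offs for its other comparisons (absolute log2 fold change over 0.5, mean over 50) left them called too. Adjustment and cut-offs do not change a log2 fold change, and the recovered counts reproduce it, so these settings could not turn a direction. The highest deposited DESeq2 adjusted p among the 9 was 3.07e-15, for THOC1. At an adjusted p of at most 0.05 NXF1 was also called, so that 7 members were cytoplasmic. With equal library totals the log2 fold change of NXF1 reversed to -0.29, and the median of the members was 0.57. Weighted by the inverse squared standard error, the mean of the members was 0.71. In the wider lists, equal totals gave 18 cytoplasmic and 14 nuclear genes, and Bonferroni adjustment left 1 nuclear gene. Leaving out each library in turn in the limma fit, the cytoplasmic calls ran from 0 to 6 and the nuclear calls from 0 to 3 among the members, and from 0 to 21 and 0 to 3 in the wider lists. All counts of 0 came from leaving out a nuclear library, which leaves the spread to be estimated from the 2 cytoplasmic libraries, with the lone nuclear library assumed to vary like them, and where no gene in the table passed. The members' log2 fold changes kept their sign in these fits, as values that do not overlap between fractions must. Their median ran from 1.16 to 1.3. No paired analysis was possible because the recovered libraries cannot be tied to the replicate numbers, and the replicate block was not run for this reason. The planned count fits with TMM, another low-count filter and a second count tool were not run, since the table as deposited holds no counts.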
